A study of Mus musculus with 6 samples.

Results

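The genes described here are 47 mouse genes of the WNT and hedgehog signalling pathways, 37 of the WNT pathway and 10 of the hedgehog pathway, out of 21878 genes counted in thyroid tissue. They were selected by gene name from the rows of the count table, as WNT ligands, frizzled receptors, LRP co-receptors, secreted WNT antagonists, R-spondins and their LGR receptors, β-catenin and *Axin2*, and hedgehog ligands, receptors and GLI factors. The selection was made with counts from the same libraries already known, so the values of the 47 genes are given as a description and are not evidence that either pathway differed. The glands came from female mice aged 12 weeks, 3 of them Thy-Tet1+/+, which were wild-type littermates, and 3 labelled Thy-Tet1-/-. The latter were bred from mice with a floxed *Tet1* allele and a Cre transgene whose promoter is active in thyroid follicular epithelial cells, and a whole gland also holds cells outside that lineage. *Tet1* encodes an enzyme that oxidises 5-methylcytosine in DNA, and the comparison asks which transcripts differ when it is deleted in the thyroid. The deposited titles call the Thy-Tet1+/+ libraries control and the others treatment, although no mouse in either group received a treatment. Each library came from 1 mouse.

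WNT proteins are secreted ligands that bind frizzled receptors. Together with LRP5 or LRP6 this stops the destruction of β-catenin, which then activates target genes with TCF/LEF factors, while other WNT ligands act through frizzled receptors without β-catenin. Hedgehog ligands bind Patched, which releases Smoothened from inhibition and lets GLI factors act on their target genes. *Axin2* and *Ptch1* are widely used as readouts of these routes, since each encodes an inhibitor of its own pathway and is itself a target gene. In the thyroid, both pathways are known for roles in development of the gland and in the communication between its epithelium and stroma.

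The libraries held between 8867683 and 19950898 counts, and 3 counts, the smallest number taken as distinguishable from 0, were worth 0.152 to 0.356 CPM, the count relative to the TMM-scaled total of its library. These floors cover counting error only. *Tet1* itself had 48, 71 and 62 counts in Thy-Tet1+/+ and 172, 162 and 241 in the others, so its transcript count went against the label, and for that reason the second group and its libraries are written as labelled Thy-Tet1-/-. The study genotyped its mice from tail DNA. In thyroids of Thy-Tet1-/- mice it reported less TET1 protein and less 5-hydroxymethylcytosine, the product of the enzyme. A count over the whole gene does not measure protein or show which exons were deleted. Of 11 follicular cell markers, 10 were tested and *Slc26a4* had 5 counts or fewer in every library. Thyroglobulin (*Tg*) made up nearly all of their sum, with 252700 to 313700 CPM in Thy-Tet1+/+ and 190900 to 236500 CPM in the other group, and the other 10 summed to 2097 to 2323 and 1866 to 2086 CPM. The markers went in both directions, as *Tshr* (-2.16), *Dio1* (-0.72) and *Iyd* (-0.62) met the limits defined below as lower and *Nkx2-1* (0.65) as higher, each given as a log2 fold change. Markers of parathyroid chief cells ranged from 89.2 to 12920 CPM in Thy-Tet1+/+ and from 4234 to 9313 CPM in the other group, and markers of skeletal muscle ranged from 929 to 7456 CPM and from 18.7 to 8273 CPM. Those of thymocytes and lymphocytes ranged from 9.43 to 116 CPM in Thy-Tet1+/+ and from 7.58 to 500 CPM in the other group. The fibroblast sum overlapped between the groups, at 985 to 1268 and 1106 to 1328 CPM. The part of these cell types in the results below was not tested. Since whole glands were sequenced, fewer cells of a type cannot be told apart from less RNA per cell.

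Levels of different genes were compared as CPM per kb of the longest annotated transcript, averaged over the 6 libraries. β-Catenin (*Ctnnb1*) had the highest level of the 47 genes, at 114 CPM per kb. The frizzled receptors *Fzd6* and *Fzd7* followed at 41.6 and 41.4 CPM per kb, and the R-spondin receptor *Lgr4* had 37.3 CPM per kb. *Wnt4* was the most abundant ligand at 22.2 CPM per kb, *Lrp6* the more abundant co-receptor at 17.2 CPM per kb, and *Sfrp2* the most abundant secreted antagonist at 10.6 CPM per kb. On the hedgehog side, *Smo* had 14.4, *Sufu* 7.50 and *Ptch1* 5.40 CPM per kb, whereas the only hedgehog ligand with enough counts for a test, *Dhh*, had 0.475 CPM per kb. *Wif1*, a secreted WNT inhibitor, had 0 counts in all 6 libraries.

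**Figure D1:**
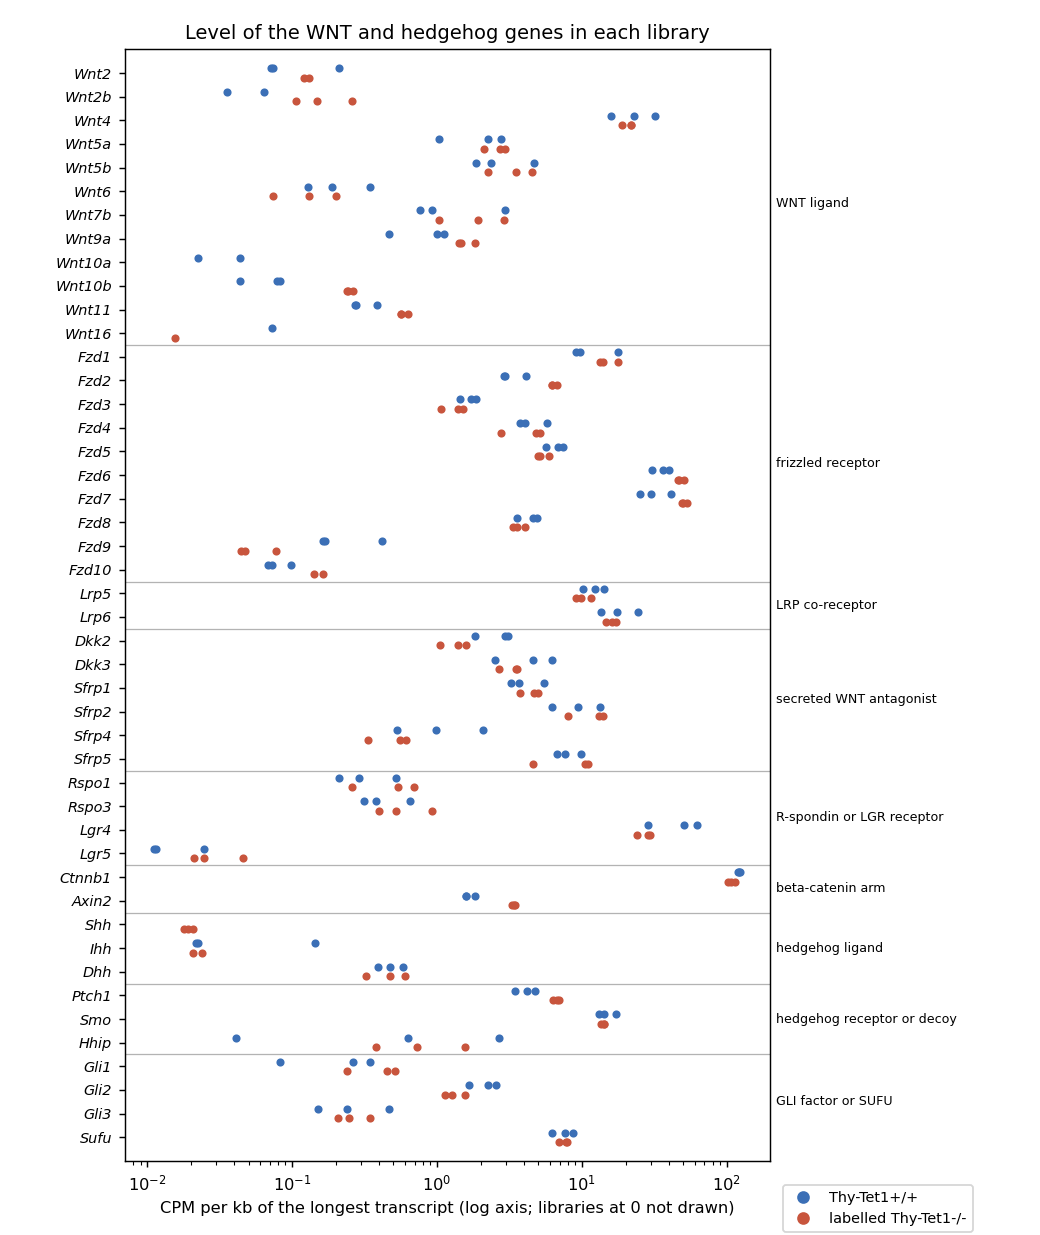
Level of each gene in each library, in CPM per kb of the longest transcript on a log axis, with 1 point per library, grouped by role and with libraries at 0 not drawn. *Ctnnb1* lies furthest right at a mean of 114 CPM per kb, and the hedgehog ligands lie far to the left of *Smo* at 14.4 CPM per kb.

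Of the 47 genes, 36 passed the filter on low counts and 11 did not. The groups were compared for all 14143 genes that passed, with edgeR's quasi-likelihood test. A gene was said to meet the limits when its absolute log2 fold change was above 0.585 (1.5-fold) with an unadjusted p under 0.05. Of the 36 tested genes, 9 met the limits (25.0%), against 9.2% of all tested genes. In the libraries labelled Thy-Tet1-/-, *Axin2*, *Fzd2*, *Ptch1*, *Fzd7*, *Wnt10b* and *Wnt11* were higher. These were 6 of 36 genes, against 783 of all 14143 tested genes in that direction (5.54%). *Wnt10b* was admitted by the filter only through the group in which it was higher. Without it 8 of 35 genes met the limits (22.9%), 5 of them as higher (14.3%). *Dkk2*, *Gli2* and *Lgr4* were lower, 3 of 36 genes against 518 of all 14143 tested genes (3.66%). Without Thy-Tet1+/+ replicate 2, however, the number lower was 0. None of the 36 had an adjusted p under 0.05 (edgeR with Benjamini-Hochberg adjustment over all tested genes, met by 0.113% of them), while 10 had an unadjusted p under 0.05 (27.8%, against 18.9% of all tested genes) and DESeq2 gave 5 an adjusted p under 0.05 (*Axin2*, *Fzd2*, *Ptch1*, *Fzd7* and *Fzd6*), against 8.34% of all genes in that test. The groups did not overlap for 11 of the 36 (30.6%), against 26.8% of all tested genes. *Wnt10b* is included both in these 11 and in the 10 with an unadjusted p under 0.05.

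Higher and lower values were nearly balanced over the whole set. The fitted log2 fold change was above 0 for 19 of the 36 tested genes and below 0 for 17, with a median of 0.06 beside 0.001 over all tested genes. It was 0.16 for the 28 tested WNT genes and -0.06 for the 8 tested hedgehog genes. With libraries scaled to the follicular cell markers other than *Tg*, which moved the median of all genes by 0.18, 8 of the genes met the limits as higher and 1 as lower. With scaling to fibroblast markers, which moved the median of all genes by -0.145, 3 met them as higher and 4 as lower.

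**Figure D2:**
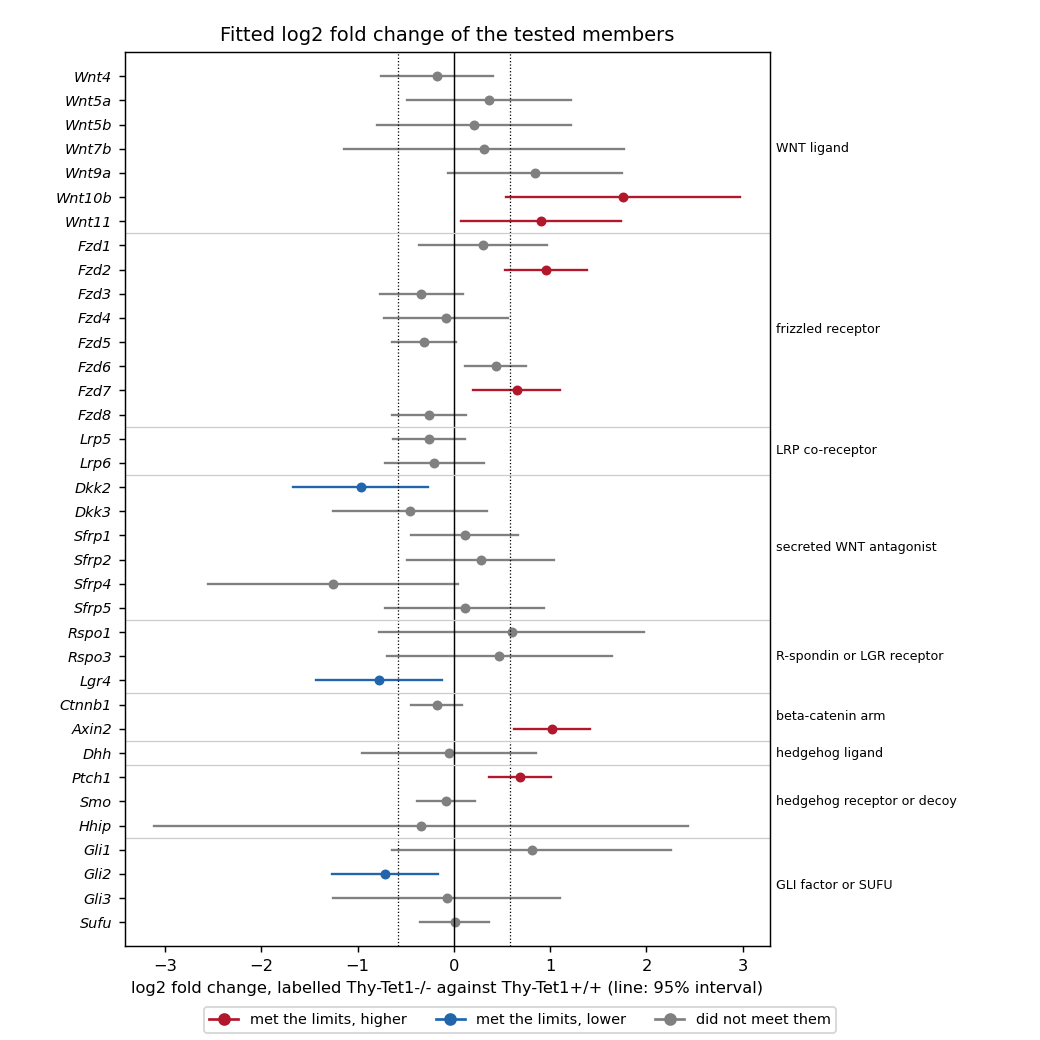
Fitted log2 fold change of the 36 tested genes, libraries labelled Thy-Tet1-/- against Thy-Tet1+/+, with lines for the 95% interval and dotted lines at the limit of 0.585 in either direction. The 6 genes in red met the limits as higher and the 3 in blue as lower, and the interval of *Hhip* is the widest.

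Promoter sequence was available for 31 of the 47 genes in a table made from RefSeq on build GRCm38.p6, with 35 start sites, and 16 genes had no entry. The 250 bases before the start site are shown for the pair of genes in each direction that had the smallest p and 1 start site, since a target of TET1 is 5-methylcytosine, which in mammals lies mostly in the dinucleotide CG. Sequences run 5′ to 3′ on the gene's strand, in lower case with each CG in capitals. *Axin2* (chr11:108920099-108920348, plus strand) holds 24 CG and *Ptch1* (chr13:63565736-63565985, minus strand, at a start site inside the longest annotated gene body) holds 41. *Dkk2* (chr3:132085042-132085291, plus strand) holds 7 and *Gli2* (chr1:119053620-119053869, minus strand) holds 22.
Axin2: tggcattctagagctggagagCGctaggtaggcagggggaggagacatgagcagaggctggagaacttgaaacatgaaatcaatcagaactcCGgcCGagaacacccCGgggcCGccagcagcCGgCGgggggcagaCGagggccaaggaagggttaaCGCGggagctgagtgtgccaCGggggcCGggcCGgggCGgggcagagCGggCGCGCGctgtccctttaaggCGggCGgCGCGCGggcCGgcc
Ptch1: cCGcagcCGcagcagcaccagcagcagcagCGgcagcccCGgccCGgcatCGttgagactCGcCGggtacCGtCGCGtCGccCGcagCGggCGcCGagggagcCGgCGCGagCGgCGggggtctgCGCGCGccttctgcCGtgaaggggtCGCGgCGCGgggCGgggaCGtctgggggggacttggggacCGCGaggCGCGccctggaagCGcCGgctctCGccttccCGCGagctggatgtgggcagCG
Dkk2: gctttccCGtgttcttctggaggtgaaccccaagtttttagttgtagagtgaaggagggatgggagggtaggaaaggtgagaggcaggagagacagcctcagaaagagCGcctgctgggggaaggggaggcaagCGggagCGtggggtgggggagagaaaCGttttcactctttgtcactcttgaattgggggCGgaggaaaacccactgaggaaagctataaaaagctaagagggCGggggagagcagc
Gli2: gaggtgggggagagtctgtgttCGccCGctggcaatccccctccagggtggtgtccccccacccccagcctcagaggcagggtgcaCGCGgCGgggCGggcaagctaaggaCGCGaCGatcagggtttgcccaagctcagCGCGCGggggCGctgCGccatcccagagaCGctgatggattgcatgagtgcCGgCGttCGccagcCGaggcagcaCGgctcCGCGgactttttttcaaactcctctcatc
The CG of the *Ptch1* window were spread evenly, with 21 in the first 125 bases and 20 in the last 125, while *Axin2* had 6 and 18, *Gli2* 9 and 13 and *Dkk2* 2 and 5. *Gli2*, which was lower, held nearly as many as *Axin2*, which was higher. Over the 35 windows of the 47 genes the median was 22.0 CG (4 to 48), against 15.0 for promoters of all tested genes and 6.0 for all 32851 promoters. The 6 windows of 5 genes that met the limits as higher had a median of 20.5 (14 to 41), and the 3 windows of the genes that were lower had 10 (7 to 22), ranges that overlap. DNA methylation was not measured in these libraries. The TCF/LEF motif CTTTGAT, searched on both strands, was found in 2 of the 35 windows (5.71%), those of *Wnt5b* and *Wnt11*, against 3.21% of all promoters. The GLI motif GACCACCCA, also on both strands, was found in 0 of the 35, against 0.225% of all promoters.

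Among the 12 WNT ligands, 7 were tested and 2 met the limits (28.6%, against 9.2% of all tested genes), both as higher. This share includes *Wnt10b*, which was admitted by the filter only through the group in which it was higher. *Wnt4*, which is known for roles in kidney and gonad development, had 134, 96.4 and 66.1 CPM in Thy-Tet1+/+ and 91.7, 79.1 and 91.0 CPM in the libraries labelled Thy-Tet1-/-. The second group lay inside the range of the first, and the log2 fold change was -0.18 (95% interval -0.76 to 0.41). *Wnt10b* (chr15:98770712-98778150), a ligand that inhibits the formation of fat cells, had 1, 4 and 4 counts in Thy-Tet1+/+ and 12, 11 and 14 in the other group. Mean levels were 0.185 ± 0.0575 and 0.672 ± 0.0339 CPM (SD, n = 3 each), without overlap, with a log2 fold change of 1.76 (SE 0.51, adjusted p = 0.148). *Wnt10b* passed the filter only through the libraries labelled Thy-Tet1-/-, where 3 of 3 exceeded the cutoff of 0.575 CPM (of the unscaled total) against 0 of 3 in Thy-Tet1+/+, it failed a filter of at least 10 counts in every library, and its call was lost with DESeq2 (1.81).

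*Wnt11* (chr7:98835112-98855195), a ligand that acts largely without β-catenin, had 8, 25 and 17 counts in Thy-Tet1+/+ and 36, 33 and 43 in the other group. It was 1.08 ± 0.226 CPM against 2.03 ± 0.131 CPM (SD, n = 3 each), again without overlap, with a log2 fold change of 0.90 (SE 0.35, adjusted p = 0.232). The call was lost in 9 of 13 alternatives, among them the removal of Thy-Tet1+/+ replicate 1 (0.83) or 3 (0.81) and of the library labelled Thy-Tet1-/- replicate 1 (0.90), 2 (0.92) or 3 (0.84), and its exons overlap an opposite-strand transcript over 8.8% of their length. *Wnt9a* had groups that did not overlap, at 1.54, 3.32 and 3.72 CPM against 6.10, 4.68 and 4.83 CPM, but did not meet the limits (log2 fold change 0.85, 95% interval -0.06 to 1.75, adjusted p = 0.287). *Wnt9a* did meet them with DESeq2 (0.84), limma-voom (0.81) and follicular scaling (1.04). *Wnt5a*, *Wnt5b* and *Wnt7b*, with log2 fold changes from 0.21 to 0.36, had overlapping groups.

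Of the 10 frizzled receptors, 8 were tested, and the 3 with an unadjusted p under 0.05 (37.5%, against 18.9% of all tested genes) were higher in the libraries labelled Thy-Tet1-/-. *Fzd2* (chr11:102604396-102608058) had 15.1, 10.8 and 10.6 CPM in Thy-Tet1+/+ and 22.9, 24.8 and 22.8 CPM in the other group. Every library of the second group lay well above the first. Means were 12.1 ± 2.54 and 23.5 ± 1.11 CPM (SD, n = 3 each), and the log2 fold change was 0.96 (SE 0.18, adjusted p = 0.0908 with edgeR and 2.6e-04 with DESeq2, range over the alternatives 2.6e-04 to 0.324). *Fzd2* met the limits in all 14 alternatives, with log2 fold changes from 0.79 to 1.14.

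*Fzd7* (chr1:59482424-59486955), a receptor known from stem cells of epithelia, had 187, 136 and 114.5 CPM in Thy-Tet1+/+ and 225.5, 241 and 222 CPM in the libraries labelled Thy-Tet1-/-. The Thy-Tet1+/+ libraries were spread widely and the others were close together, and the groups did not overlap (146 ± 37.3 against 229.5 ± 10.1 CPM, SD, n = 3 each). The log2 fold change of *Fzd7* was 0.65 (SE 0.19, adjusted p = 0.152), and it fell below the limit without Thy-Tet1+/+ replicate 3 (0.51) and with fibroblast scaling (0.48). *Fzd6*, which has a known role in planar cell polarity, had 131, 156 and 172 CPM against 218, 202 and 200 CPM. Its groups did not overlap either, with means of 153 ± 20.7 and 207 ± 9.48 CPM (SD, n = 3 each), but its log2 fold change of 0.43 (SE 0.13, adjusted p = 0.165) was under the limit. It met the limits with follicular scaling (0.62).

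The other 5 tested frizzled receptors had overlapping groups. *Fzd3*, *Fzd4*, *Fzd5* and *Fzd8* had log2 fold changes between -0.34 and -0.08, and *Fzd1* had 0.30. The co-receptor *Lrp6* had 227, 163 and 126 CPM in Thy-Tet1+/+ and 137, 161 and 150.5 CPM in the other group, the second group again within the range of the first. Its log2 fold change was -0.20 (95% interval -0.72 to 0.32), and that of *Lrp5* was -0.26 (95% interval -0.63 to 0.12).

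**Figure D3:**
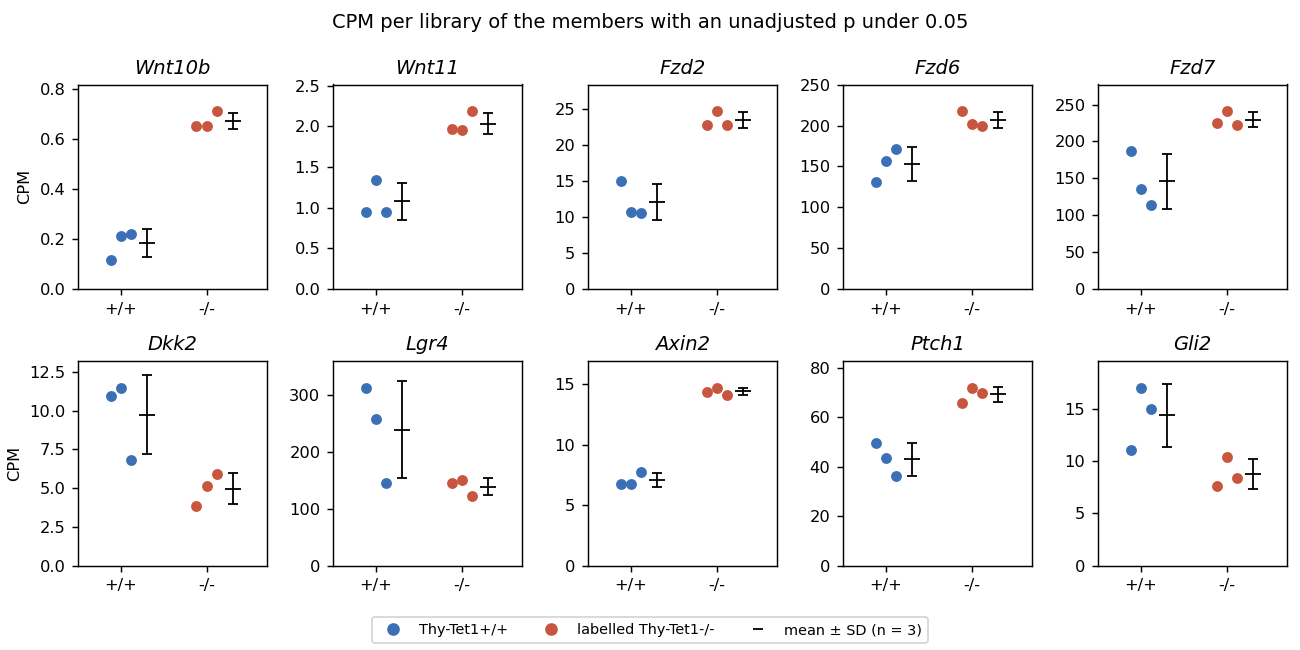
CPM in each library of the 10 genes with an unadjusted p under 0.05, with 1 point per library, the mean and the SD (n = 3) beside them, and axes that start at 0. *Lgr4* is the gene whose groups overlap, since Thy-Tet1+/+ replicate 3 at 146 CPM lies below the highest library of the other group at 150 CPM.

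Among the secreted antagonists, *Dkk2*, a Dickkopf protein that binds LRP5 and LRP6, was lower in the libraries labelled Thy-Tet1-/-. *Dkk2* (chr3:132085292-132180304) had 10.9, 11.5 and 6.82 CPM in Thy-Tet1+/+ and 3.87, 5.15 and 5.89 CPM in the other group. The groups did not overlap, although Thy-Tet1+/+ replicate 3 lay close to the second group, and means were 9.75 ± 2.55 and 4.97 ± 1.03 CPM (SD, n = 3 each). The log2 fold change was -0.97 (SE 0.29, adjusted p = 0.164), and the call was lost without Thy-Tet1+/+ replicate 2 (-0.83).

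*Sfrp2*, a secreted protein that binds WNT ligands, had 26.6, 12.5 and 18.8 CPM in Thy-Tet1+/+ and 26.1, 27.8 and 16.1 CPM in the other group. These ranges overlapped, and the log2 fold change was 0.28 (95% interval -0.48 to 1.04). The related *Sfrp4* had 2.14, 3.96 and 8.38 CPM against 1.36, 2.25 and 2.49 CPM, with Thy-Tet1+/+ replicate 3 far above the rest, and its log2 fold change of -1.25 did not meet the limits (95% interval -2.55 to 0.04, adjusted p = 0.276). *Sfrp4* met them in 5 of 14 alternatives, which were the omission of Thy-Tet1+/+ replicate 1 (-1.60), DESeq2 (-1.25), a minimum of 10 counts per library (-1.25), fibroblast scaling (-1.36) and the replicate block (-1.08), and without Thy-Tet1+/+ replicate 3 its value was -0.59. *Dkk3* (-0.45), *Sfrp1* (0.11) and *Sfrp5* (0.12) also had overlapping groups.

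R-spondins are secreted proteins that strengthen WNT signalling through LGR receptors. *Lgr4* (chr2:109917647-110014257) had 313, 257 and 146 CPM in Thy-Tet1+/+ and 145, 150 and 121 CPM in the libraries labelled Thy-Tet1-/-. Thy-Tet1+/+ replicate 3 lay among the libraries of the other group, so that the groups overlapped, with means of 238.5 ± 85.2 and 139 ± 15.2 CPM (SD, n = 3 each). *Lgr4* met the limits with a log2 fold change of -0.78 (SE 0.28, adjusted p = 0.203). The call was lost without Thy-Tet1+/+ replicate 1 (-0.54) or 2 (-0.72), without replicate 3 of the libraries labelled Thy-Tet1-/- (-0.70) and with follicular scaling (-0.61). The ligands *Rspo1* and *Rspo3*, at 0.388 to 1.27 and 0.963 to 2.83 CPM, had log2 fold changes of 0.60 and 0.47 with intervals that included 0.

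*Axin2* (chr11:108920349-108950783), which encodes a scaffold of the complex that destroys β-catenin, had the smallest adjusted p of the 47 genes. It had 6.76, 6.79 and 7.77 CPM in Thy-Tet1+/+ and 14.4, 14.8 and 14.1 CPM in the libraries labelled Thy-Tet1-/-. Libraries within a group were close together and the groups were far apart, at 7.11 ± 0.572 against 14.4 ± 0.315 CPM (SD, n = 3 each). The log2 fold change was 1.02 (SE 0.17, adjusted p = 0.0797 with edgeR's quasi-likelihood test and 6.4e-05 with DESeq2, range over the alternatives 6.4e-05 to 0.320). *Axin2* met the limits in all 14 alternatives, with log2 fold changes from 0.87 to 1.20, and its exons overlap an opposite-strand transcript over 3.8% of their length. *Ctnnb1* had 437, 432 and 448 CPM in Thy-Tet1+/+ and 386, 412 and 368 CPM in the other group. The groups did not overlap but lay close together, with a log2 fold change of -0.18 (95% interval -0.44 to 0.09), and with follicular scaling it was 0.003.

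On the hedgehog side, 8 of 10 genes were tested, of which *Ptch1* was higher and *Gli2* lower (25%, against 9.2% of all tested genes). Desert hedgehog (*Dhh*), the ligand known from testis and peripheral nerve sheaths, had 17, 46 and 30 counts in Thy-Tet1+/+ and 37, 43 and 27 in the other group. In CPM the groups overlapped, with a log2 fold change of -0.05 (95% interval -0.96 to 0.85). Its exons overlap *Rhebl1* on the same strand over 12.4% of their length and an opposite-strand transcript over 25.2%, so part of its counts is uncertain. *Ptch1* (chr13:63508328-63573598), the receptor, had 49.4, 43.4 and 36.1 CPM in Thy-Tet1+/+ and 65.8, 71.9 and 69.7 CPM in the other group. Every library labelled Thy-Tet1-/- lay above the controls, at 69.1 ± 3.09 against 43.0 ± 6.63 CPM (SD, n = 3 each). The log2 fold change of *Ptch1* was 0.69 (SE 0.14, adjusted p = 0.0965 with edgeR and 7.9e-04 with DESeq2, range over the alternatives 7.9e-04 to 0.324). It fell just below the limit without Thy-Tet1+/+ replicate 3 (0.58) and with fibroblast scaling (0.53), on which scale the median of all genes was itself -0.145.

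*Smo*, the signal transducer that Patched inhibits, had 64.8, 49.4 and 53.7 CPM in Thy-Tet1+/+ and 51.3, 54.0 and 53.5 CPM in the other group. The groups overlapped, with a log2 fold change of -0.08 (95% interval -0.38 to 0.22). *Hhip*, a membrane protein that captures hedgehog ligands, had 5.69, 0.374 and 24.4 CPM in Thy-Tet1+/+ and 6.59, 14.1 and 3.46 CPM in the other group. Its highest and lowest libraries, both Thy-Tet1+/+, differed 65.1-fold, the widest range of the 36 tested members of both pathways, and its log2 fold change of -0.34 had an SE of 1.16.

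Among the GLI factors, *Gli2* (chr1:118834132-119053619), the main activator of hedgehog target genes in many tissues, had 11.0, 17.0 and 15.0 CPM in Thy-Tet1+/+ and 7.57, 10.4 and 8.38 CPM in the other group. The groups did not overlap, although Thy-Tet1+/+ replicate 1 and the library labelled Thy-Tet1-/- replicate 2 were close, and means were 14.3 ± 3.04 and 8.78 ± 1.44 CPM (SD, n = 3 each). The log2 fold change was -0.71 (SE 0.23, adjusted p = 0.179). The call on *Gli2* was lost without Thy-Tet1+/+ replicate 2 (-0.57) or 3 (-0.68), without replicate 1 of the libraries labelled Thy-Tet1-/- (-0.64) and with follicular scaling (-0.52). *Gli1*, itself a target gene of the pathway, had only 9, 26 and 6 counts in Thy-Tet1+/+ and 38, 31 and 19 in the other group. In CPM the groups overlapped, and its log2 fold change of 0.81 had an interval from -0.64 to 2.26 (adjusted p = 0.516), so that neither no difference nor one of the size seen for *Ptch1* lay outside it. *Gli3*, mostly a repressor, had -0.07 (95% interval -1.25 to 1.10). The inhibitor *Sufu* was the most abundant of these 4 genes per length, with 28.1, 34.3 and 39.1 CPM in Thy-Tet1+/+ and 35.3, 31.3 and 35.6 CPM in the other group. These overlapped, with a log2 fold change of 0.01 (95% interval -0.35 to 0.36).

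The 11 genes that failed the filter were *Wnt2*, *Wnt2b*, *Wnt6*, *Wnt10a*, *Wnt16*, *Fzd9*, *Fzd10*, *Wif1*, *Lgr5*, *Shh* and *Ihh*, and none exceeded 17 counts in any library. Sonic hedgehog (*Shh*) had 0 counts in the 3 Thy-Tet1+/+ libraries and 1 in each of the others, and Indian hedgehog (*Ihh*) had 3, 1 and 1 against 0, 1 and 1, so both stood at or under the 3-count floor in every library. *Lgr5*, a marker of several epithelial stem cells, had 1 count in each Thy-Tet1+/+ library and 4, 2 and 2 in the other group. For *Fzd9* the counts were 8, 7 and 7 against 2, 3 and 2, and for *Wnt2b* they were 1, 4 and 0 against 9, 6 and 17. Both met the limits, *Fzd9* as lower and *Wnt2b* as higher, when no filter was applied, and at these depths their levels could not be measured closely.

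Libraries within a group differed in these genes, more so in Thy-Tet1+/+. The ratio of the highest to the lowest library had a median of 1.69 over the 36 tested genes in Thy-Tet1+/+ and 1.33 in the other group. It was the wider in Thy-Tet1+/+ for 29 of 36 genes and in the other group for 7. Over all tested genes the share wider in Thy-Tet1+/+ was smaller, at 64.9%. The library with the highest level within its group was the library labelled Thy-Tet1-/- replicate 2 for 23 of 36 genes and Thy-Tet1+/+ replicate 1, the shallowest library, for 16. The matching shares over all tested genes were not counted, so these numbers cannot be read as particular to these genes. For 7 genes (*Wnt5b*, *Wnt7b*, *Fzd1*, *Fzd8*, *Ctnnb1*, *Axin2* and *Hhip*) the highest libraries were Thy-Tet1+/+ replicate 3 and the library labelled Thy-Tet1-/- replicate 2. Taken singly, these libraries were highest in their groups for 12 and 23 of the 36 genes. They had the highest marker sums of their groups for parathyroid cells (12920 and 9313 CPM), C cells (20980 and 17050 CPM) and endothelium (761 and 868 CPM). Of the C cell sums, *Chga* alone gave 18420 and 12320 CPM. The C cell marker *Calca* was not highest in them, at 2439 and 4599 CPM. It was highest in Thy-Tet1+/+ replicate 2 (4612 CPM) and the library labelled Thy-Tet1-/- replicate 1 (4659 CPM). These 7 genes were picked out after their values had been seen, and the part of any of these cell types in their levels was not tested.

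**Figure D4:**
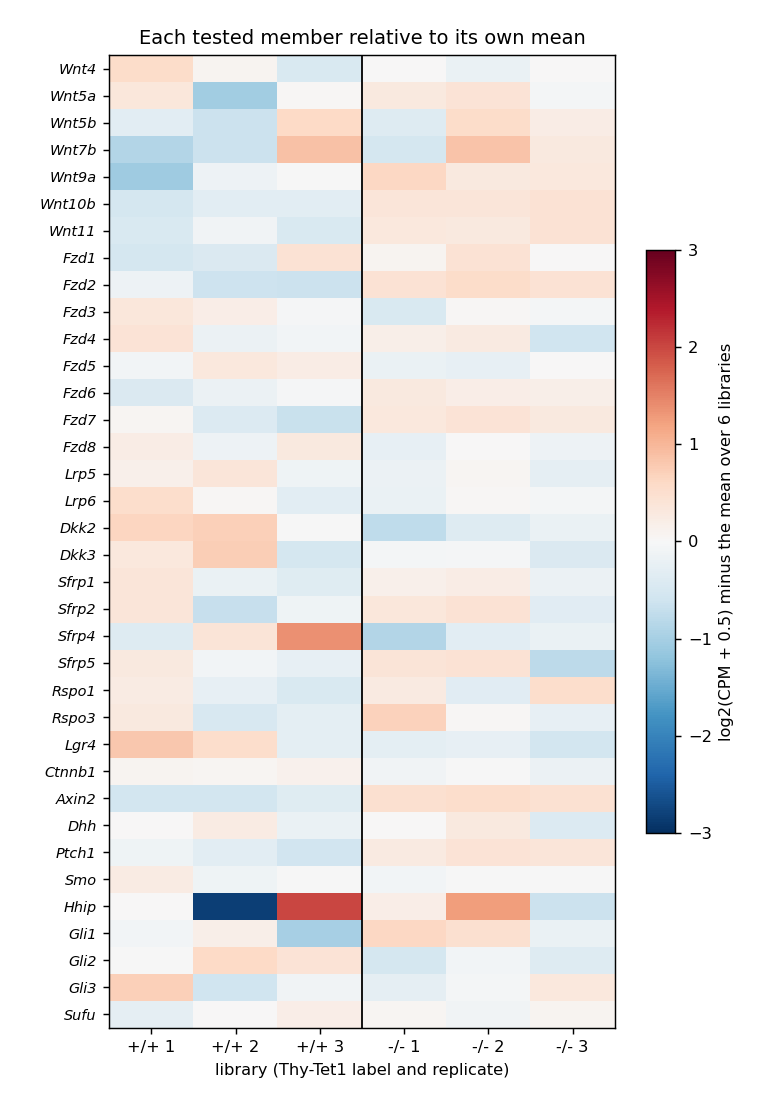
log2(CPM + 0.5) of each tested gene in each library minus the gene's mean over the 6 libraries, with red above and blue below the mean. *Hhip* varies most within the groups. *Axin2*, *Fzd2*, *Wnt10b*, *Wnt11* and *Ptch1* are among the genes that change colour at the line between the groups, as are *Fzd6* and *Wnt9a*. *Ctnnb1* lies slightly above its mean in Thy-Tet1+/+ and slightly below it in the other group.

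Some markers of stromal cells also met the limits. Of the 10 fibroblast markers, 0 were lower and 2 were higher in the libraries labelled Thy-Tet1-/-, against 3.66% and 5.54% of all tested genes. The 2 were the platelet-derived growth factor receptors *Pdgfra* and *Pdgfrb*. The other fibroblast markers had log2 fold changes from -0.27 (*Col1a1*) to 0.50 (*Dcn*). For *Col1a1* and *Dcn* the groups did not overlap. *Pdgfra* had 35.2, 36.7 and 30.0 CPM against 55.6, 50.7 and 54.3 CPM, with a log2 fold change of 0.65 (adjusted p = 0.0856), and *Pdgfrb* had a log2 fold change of 0.68 (adjusted p = 0.156). Adipocyte markers summed to 167 to 537 CPM in Thy-Tet1+/+ and 392 to 1628 CPM in the other group. Their part in the levels of *Axin2*, *Fzd2*, *Fzd7*, *Ptch1* or *Wnt10b* was not tested.

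Beyond these 47 genes, 130 further genes of the 2 pathways were listed, of which 105 were tested. They comprised other ligands and modulators, the β-catenin destruction complex, TCF/LEF factors, planar cell polarity genes, cilium and relay proteins of the hedgehog route, and reported target genes. Of the 105, 13 met the limits (12.4%, against 9.2% of all tested genes), 10 as higher and 3 as lower, and none had an adjusted p under 0.05 (edgeR). At an unadjusted p under 0.05 there were 19 (18.1%, against 18.9% of all tested genes), and DESeq2 gave 10 an adjusted p under 0.05, against 8.34% of all genes in that test. With fibroblast scaling the balance turned, to 4 higher and 7 lower. The groups did not overlap for 26 of them (24.8%), close to the 26.8% of all tested genes. *Nkd1*, an inhibitor that binds Dishevelled and a reported WNT target gene, was lower, with 163, 212 and 272 CPM in Thy-Tet1+/+ and 114, 89.2 and 111 CPM in the other group. It did not overlap between groups (216 ± 54.6 against 105 ± 13.6 CPM, SD, n = 3 each), and its log2 fold change was -1.04 (SE 0.21, adjusted p = 0.0965), a direction opposite to that of *Axin2*.

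Other genes that met the limits as higher included the Dishevelled gene *Dvl2* (0.73), the destruction complex genes *Apc2* (1.20) and *Amer1* (0.75), the co-repressors *Tle2* (0.73) and *Tle3* (0.66), the planar cell polarity genes *Vangl2* (0.91) and *Prickle3* (0.71), the secreted modulator *Sostdc1* (0.74), and *Kif7* (0.82), a cilium protein of the hedgehog route, each given as a log2 fold change. The reported hedgehog targets *Ccnd2* (-0.87), a cyclin, and *Nkx2-2* (-1.14), a transcription factor of the ventral neural tube, met them as lower. Among 14 tested WNT target genes outside the 47, 0 were higher and 1 was lower by the limits (7.14%, against 9.2% of all tested genes). With *Axin2* and *Ptch1* included, the listed targets of each pathway thus held genes that were higher and genes that were lower.

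**Figure D5:**
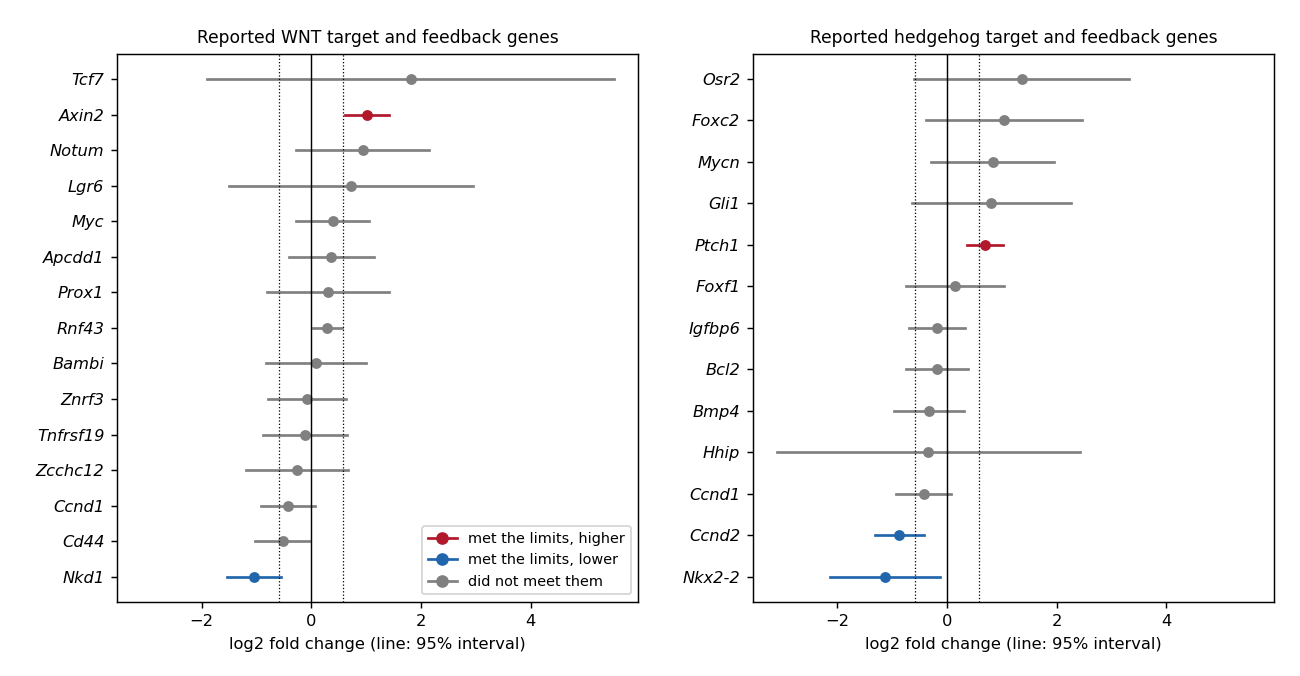
Fitted log2 fold change of the reported WNT and hedgehog target and feedback genes described here, members of the 47 included, with lines for the 95% interval and dotted lines at the limit of 0.585 in either direction. *Axin2* and *Nkd1* lie on opposite sides of 0 among the WNT targets, as do *Ptch1* and *Ccnd2* among the hedgehog targets.

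The KEGG annotation in the deposited table gave another view of the same pathways. Outside the 47 genes, 96 tested genes carried the Wnt signaling pathway term, of which 6 were higher and 3 lower by the limits (9.38%). Of 32 tested genes with the Hedgehog signaling pathway term, 2 were higher and 1 lower (9.38%). Both shares lay near the 9.2% of all tested genes. The Basal cell carcinoma term had 5 higher and 2 lower of 23 tested genes outside the 47 (30.4%), and 11 higher and 3 lower of 47 with them (29.8%). This term holds WNT and hedgehog genes but also others. Its smallest adjusted p outside the 47 (0.0912, edgeR) belonged to none of the 130 further pathway genes, whose smallest was 0.0965. The same held for the Wnt signaling pathway term, whose smallest outside the 47 was 0.0719 (edgeR). Absence from these lists therefore does not place a gene outside the pathways. The part of other genes in the share of the Basal cell carcinoma term was not tested.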

How the data were processed

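The authors deposited raw counts of reads per gene for 6 thyroid libraries, 1 column per mouse, without normalization. The submitters' processing notes name genome build mm10, and the aligner, the counting program and the annotation are not given in the sources used here. The protocol deposited with the libraries describes poly(A)-selected RNA and names 2 library kits, 1 of them directional, while speaking of retinas. No source says if reads were counted by strand, so counts of genes with an overlapping partner are uncertain. Besides the genes named above, opposite-strand transcripts overlap 17.8% of the exon length of *Fzd5*, 16.1% of *Sfrp2* and 15.7% of *Shh*. They also overlap 14.6% of that of *Ctnnb1* and 13.1% of that of *Rspo3*. There were 0 further value columns. 27 symbols that had become dates were restored from NCBI gene identifiers. Libraries were grouped by their titles, control for Thy-Tet1+/+ and treatment for Thy-Tet1-/-, and no pair of replicates agreed within sampling noise.

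The software was edgeR 4.0.16 under R 4.3.3. Its filterByExpr function kept 14143 genes, libraries were scaled by TMM, and differences were tested by quasi-likelihood (glmQLFit and glmQLFTest) with Benjamini-Hochberg adjustment over all tested genes. All adjusted p-values are from this test unless DESeq2 is named. The study names no count test. The limits (1.5-fold, unadjusted p under 0.05) come from its figure legend. CPM used TMM-scaled library totals. The biological coefficient of variation was 0.327, and p-values weigh the group difference against the spread between libraries, each from 1 mouse. Total counts ranged from 8867683 to 19950898, and the 3-count floors cover counting error only.

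The genes and lists were chosen with earlier results of these data known. Values in every library were given for genes that met the limits, had an unadjusted p under 0.05 or had the highest level of their role per length, and genes outside the 47 were named if they were on a list and met the limits or were markers. *Wnt9a*, *Sfrp4*, *Hhip*, *Gli1* and the low-count genes were added after their values had been seen. Transcript lengths and gene coordinates were from GENCODE M21 (GRCm38, the assembly of mm10), with a length for 47 of 47 genes, and promoters from RefSeq. The result for 1 listed gene is not reported here. The code was tested on simulated data.

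The fit was repeated with DESeq2 1.42.0 (Wald test), with voom from limma 3.58.1, with RLE size factors, without a filter, with a minimum of 10 counts per library, with scaling to follicular or fibroblast markers, with a block for the replicate number, and with 1 library omitted at a time. Same-numbered libraries of the groups did not deviate together (correlations -0.17, -0.37 and -0.19), so the numbers were not used as pairs.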

Additional observations from a re-analysis of the deposited data

How the results depend on the processing

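Depth limits the genes under about 1 CPM, and the spread between 3 mice limits the rest. *Axin2* and *Fzd2* kept their direction and met the limits in all 14 alternatives. Members of the set with an adjusted p under 0.05 numbered 0 in edgeR and limma-voom and 5 with DESeq2. Scaling to follicular markers gave 8 members higher and 1 lower, a median log2 fold change of 0.23 over the members and 0.11 over the hedgehog genes, and 85.2% of all genes past the limits as higher, against 60.2% with TMM. Scaling to fibroblast markers gave 3 members higher and 4 lower, medians of -0.10 and -0.22, 29.3% of all genes past the limits as higher, and 4 higher and 7 lower among the further pathway genes. With limma-voom the hedgehog median was 0.082. With the replicate block, 5 members were higher and 4 lower (*Wnt11* lost, *Sfrp4* gained), none had an adjusted p under 0.05, and 8 and 2 further pathway genes met the limits. With 1 library omitted at a time, 4 to 6 members were higher, 0 to 3 lower (0 without Thy-Tet1+/+ replicate 2), 11 to 19 had groups without overlap (19 without Thy-Tet1+/+ replicate 3, where fewer libraries have to be separated), the member median ranged from -0.06 (without replicate 2 of the libraries labelled Thy-Tet1-/-) to 0.16, and 7 to 13 further pathway genes were higher and 2 to 5 lower (5 without Thy-Tet1+/+ replicate 3 or replicate 1 of the libraries labelled Thy-Tet1-/-). None of the direction changes that follow passed a test. Follicular scaling turned *Fzd4* (0.076), *Ctnnb1* (0.003), *Dhh* (0.126), *Smo* (0.096) and *Gli3* (0.094), fibroblast scaling *Sfrp1* (-0.072), *Sfrp5* (-0.085) and *Sufu* (-0.12), limma-voom *Hhip* (0.94), *Gli3* (0.17) and *Sufu* (-0.011), and the replicate block *Hhip* (0.46) and *Gli3* (0.036). With 1 library omitted, log2 fold changes crossed 0 for *Wnt4* (-0.40 to 0.10), *Wnt5b* (-0.043 to 0.71), *Wnt7b* (-0.095 to 1.19), *Fzd4* (-0.24 to 0.14), *Lrp6* (-0.38 to 0.046), *Sfrp1* (-0.034 to 0.36), *Sfrp5* (-0.084 to 0.42), *Dhh* (-0.28 to 0.14), *Smo* (-0.16 to 0.036), *Hhip* (-1.02 to 1.46), *Gli3* (-0.39 to 0.45) and *Sufu* (-0.11 to 0.12). The causes were not tested, beyond the scaling itself.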
